A study of Mus musculus with 10 samples.

Results

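The fibroblast growth factor (FGF) ligands *Fgf3*, *Fgf4*, *Fgf7*, *Fgf8*, *Fgf9*, *Fgf10*, *Fgf15*, *Fgf18* and *Fgf20* were followed across 3 stages of lower incisor development in the mouse, as 9 of the 32285 genes counted. They were chosen by name, as FGF ligands with a known part in tooth development, and all 9 had an entry in every count matrix. The data are single-cell RNA counts from wild type NMRI embryos that carried no transgene and received no treatment. E11.5 (embryonic days after conception) is represented by whole mandibles, and the stages E14.5 and E16.5 by buds of the lower incisor. In order of stage the labels list 4, 4 and 2 samples, each dissociated with Collagenase P, but 1 matrix was deposited per stage and its barcodes all carry 1 suffix, so cells could not be traced to a sample. Each stage is therefore 1 sample, stage and sample (and, at E11.5, the wider dissection) cannot be told apart, and no test was made. Intervals are at the 95% level and cover only the error of counting.

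FGF ligands are secreted proteins that bind FGF receptors on nearby cells and act through the MAP kinase cascade, which induces the Etv transcription factors and feedback inhibitors such as Dusp6 and the Sprouty proteins. Tooth formation rests on signals that pass back and forth between the dental epithelium and the jaw mesenchyme beneath it. In that exchange Fgf8 and Fgf9 are known as early epithelial signals, Fgf4, Fgf9 and Fgf20 as signals of the enamel knot (a transient, non-dividing signalling centre in the epithelium), and Fgf3 and Fgf10 as mesenchymal signals that maintain the epithelium of the growing incisor.

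After removal of cells with fewer than 700 detected genes or more than 20% mitochondrial UMIs (unique molecular identifiers, 1 for each RNA molecule captured), the 3 stages in order kept 6573, 6091 and 4511 cells, with median depths of 5664, 3471 and 6260 UMIs. Between 13 and 17 barcodes were shared by any pair of stages. Each cell was assigned to a lineage from the UMIs of marker genes that did not include the ligands. This gave 832 epithelial and 4601 mesenchymal cells at E14.5, and 1577 epithelial and 2531 mesenchymal cells at E16.5. At E11.5 it gave 5827 mesenchymal cells, 60 muscle cells and 13 epithelial cells. The same markers made the calls, so their sums describe the called cells and do not check the calls. At E16.5 the epithelial markers summed to 2429 CPM (UMIs of a gene per 1000000 UMIs of the group, counted at the 3′ end of each molecule and so not scaled with length) in the epithelium and 147 CPM in the mesenchyme, and the mesenchymal markers to 4490 CPM in the mesenchyme and 56.4 CPM in the epithelium. At E14.5 these sums were 1906 and 79.0 CPM for the epithelial markers, and 3729 and 106 CPM for the mesenchymal markers. Between 242 and 348 cells per stage lay near the limit of a call.

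At the incisor bud stages the ligands divided between the 2 tissues. *Fgf3*, *Fgf10*, *Fgf7* and *Fgf18* were higher in the mesenchyme, and *Fgf9* was higher in the epithelium at both stages. *Fgf7* was scarce, in 0.913% of mesenchymal cells at E14.5, a share not told apart from the background given below. *Fgf4*, *Fgf15* and *Fgf20* had most of their UMIs in the epithelium at E14.5, in at most 3.25% of its cells. They were close to 0 or not detected at E16.5. *Fgf8* was concentrated in a handful of cells of the E11.5 mandible. Over the 3 stages the kept cells held 1664 UMIs of *Fgf10*, 973 of *Fgf9*, 816 of *Fgf3*, 582 of *Fgf18*, 137 of *Fgf7*, 111 of *Fgf4*, 74 of *Fgf15*, 70 of *Fgf8* and 17 of *Fgf20*. With at least 20 UMIs in a stage as a minimum, 5, 7 and 5 of the 9 passed at the 3 stages in order.

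**Figure D1:**
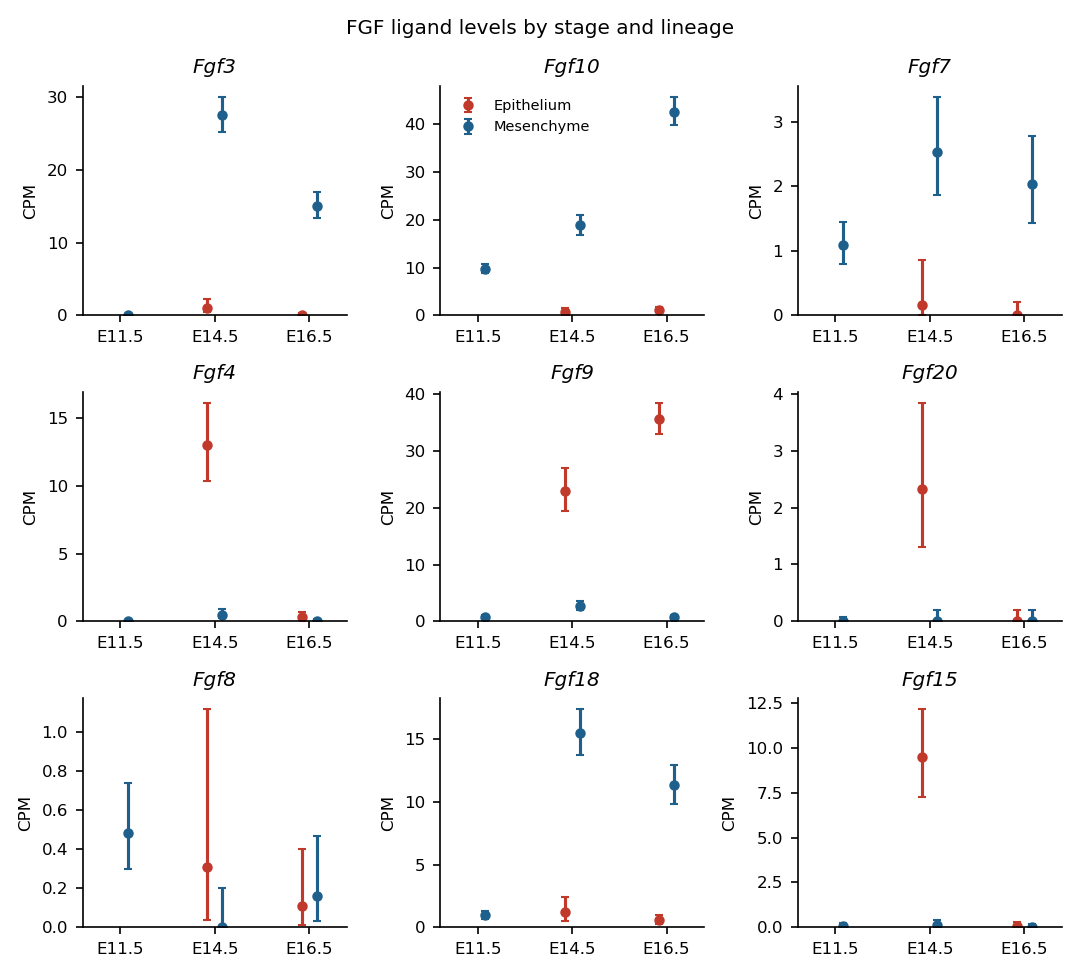
Level of each FGF ligand in CPM (vertical axis, linear, from 0) by stage (horizontal axis), for cells called epithelium (red) and mesenchyme (blue). Points pool the UMIs of all cells in the group, bars are exact Poisson 95% intervals, and the 13 epithelial cells of E11.5 are not drawn. *Fgf3* peaks in the mesenchyme of E14.5 at 27.5 CPM, *Fgf10* reaches 42.6 CPM at E16.5, and *Fgf4* and *Fgf15* are above 9 CPM in the epithelium of E14.5 alone.

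*Fgf3*, a ligand for the epithelial isoforms of FGF receptors 1 and 2, had 499 UMIs in the E14.5 mesenchyme, in 384 of the 4601 cells. Its level there was 27.5 CPM (interval 25.1 to 30.03), against 1.09 CPM in the epithelium (0.436 to 2.24), a log2 ratio of epithelium over mesenchyme of -4.66 (-5.99 to -3.61). At E16.5 the mesenchyme held 282 *Fgf3* UMIs, at 15.0 CPM (13.3 to 16.9), and the epithelium held 2, at 0.111 CPM, a log2 ratio of -7.08 (-10.14 to -5.22). Nearly all *Fgf3* RNA thus lay in the mesenchyme: 95.2% of the UMIs at E14.5 and 96.9% at E16.5. Cells with a *Fgf3* UMI made up 8.35% of the E14.5 mesenchyme (7.56 to 9.18, median depth 3307 UMIs). Erythroid and immune cells, which should lack the ligands, served as the measure of free RNA, and 2 of 137 such cells at E14.5 held a *Fgf3* UMI (1.46%, with an upper bound of 5.17%, median depth 6658). The epithelial share of 0.841% was below that value and is read as background.

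*Fgf10* signals through the epithelial isoform of Fgfr2 and is required for the upkeep of the cervical loop epithelium. Its mesenchymal level was 9.75 CPM in the whole mandible of E11.5 (8.84 to 10.7), 18.9 at E14.5 (16.9 to 21.0) and 42.6 at E16.5 (39.7 to 45.7). The epithelium stood at 0.620 CPM at E14.5 and 1.22 CPM at E16.5, with log2 ratios over the mesenchyme of -4.93 (-6.81 to -3.56) and -5.13 (-5.81 to -4.52). Cells with a *Fgf10* UMI went from 6.37% of the mesenchyme at E14.5 (5.68 to 7.11) to 20.3% at E16.5 (18.8 to 22.0, median depth 5958), and from 3.18% to 7.62% after each cell was thinned to 2000 UMIs. No *Fgf10* UMI was found among the 165 erythroid and immune cells of E11.5, which allows a share of up to 1.82% at a floor of 3 counts, and 1 of the 137 at E14.5 held one. A stricter lineage call also left out cells with any UMI of another lineage's markers, collagen and globin genes aside. With it, the *Fgf10* level of the E16.5 epithelium was 0 CPM. A deeper cell is less likely to meet that rule, so this value rests on fewer and probably shallower cells.

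*Fgf7*, a close relative of *Fgf10* with the same receptor preference, was scarcer in the same mesenchyme. Its mesenchymal level was 1.08 CPM at E11.5 (0.796 to 1.44), 2.54 at E14.5 (1.86 to 3.38) and 2.03 at E16.5 (1.43 to 2.78). The epithelium held 1 *Fgf7* UMI at E14.5, a log2 ratio of -4.03 (-9.37 to -1.48), and none at E16.5, where *Fgf7* was at least 12.2-fold lower than in the mesenchyme (against a floor of 3 counts). Cells with a *Fgf7* UMI made up 0.789% of the mesenchyme of E11.5 and 0.913% of that of E14.5. At these stages 0 of 165 and 0 of 137 erythroid and immune cells held one. Both shares are below what these counts allow, so the shares alone do not tell *Fgf7* apart from background. The share at E16.5 was 1.19%.

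*Fgf18*, a ligand known from bone and cartilage formation, was at 15.5 CPM in the E14.5 mesenchyme (13.7 to 17.4) and 11.3 CPM in that of E16.5 (9.84 to 12.9), against 1.24 and 0.555 CPM in the epithelium. The log2 ratios of epithelium over mesenchyme were -3.64 (-4.87 to -2.64) and -4.35 (-5.43 to -3.44). Cells with a *Fgf18* UMI made up 4.91% of the E14.5 mesenchyme (4.31 to 5.58), and 0 of 137 erythroid and immune cells held one, which allows up to 2.19%. The endothelium of E14.5 held 6 UMIs in 6 of 149 cells (4.03%, 1.49 to 8.56, median depth 3231), an interval that reaches below that limit, so the endothelial UMIs are not told apart from background.

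In the epithelium of E14.5, *Fgf9* led the ligands with 148 UMIs in 88 of the 832 cells, at 23.0 CPM (19.4 to 27.0), against 2.65 CPM in the mesenchyme (1.95 to 3.51), a log2 ratio of 3.12 (2.64 to 3.62). At E16.5 it was at 35.6 CPM in the epithelium (32.9 to 38.4), with 641 UMIs in 250 cells and up to 30 in a cell, and at 0.693 CPM in the mesenchyme (0.369 to 1.19), a log2 ratio of 5.68 (4.90 to 6.60). The mesenchymal share of cells with a *Fgf9* UMI at E14.5, 0.978%, was below the 2.19% that 0 of 137 erythroid and immune cells allow, whereas the epithelial share was 10.6% (8.57 to 12.9, median depth 4790).

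*Fgf4*, the classical enamel knot ligand, held 84 UMIs in 27 epithelial cells at E14.5, of which 53 (63.1%) came from 10 cells. Its level was 13.0 CPM (10.4 to 16.1), against 0.496 CPM in the mesenchyme, where 9 UMIs lay in 5 cells, a log2 ratio of 4.71 (3.72 to 5.89). *Fgf15*, better known as a hormone of the intestine, held 61 UMIs in 19 epithelial cells, 82.0% of them in 10 cells, and 2 UMIs in the mesenchyme, at 9.46 CPM (7.24 to 12.2) and 0.110 CPM, a log2 ratio of 6.42 (4.51 to 9.50). *Fgf20* held 15 UMIs in 14 epithelial cells, at 2.33 CPM (1.30 to 3.84), and none in the mesenchyme, at least 14.1-fold more against the floor of 3 counts. None of these 3 ligands was seen in more than 3.25% of epithelial cells. Of the 137 erythroid and immune cells of E14.5, 0 held *Fgf4* or *Fgf15* and 1 held *Fgf20*. Beside the 2.19% that 0 of 137 allows, the epithelial shares were 3.25% for *Fgf4* and 2.28% for *Fgf15*. That of *Fgf20* was 1.68%, beside 1 of 137 cells. Shares this close to background do not alone tell these ligands apart from it. At least 2 UMIs were held by 22 of the *Fgf4* cells and 12 of the *Fgf15* cells.

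Of the 7 ligands past the minimum of 20 counts at E14.5, 3 were at least 2-fold higher in the epithelium (*Fgf4*, *Fgf9* and *Fgf15*), where 11.4% of all genes tested were, and 4 were at least 2-fold lower (*Fgf3*, *Fgf7*, *Fgf10* and *Fgf18*), where 13.7% of all genes were. At E16.5, 1 of 5 was higher (*Fgf9*; 12.0% of all genes) and 4 were lower (the same genes as at E14.5; 13.7%). The median log2 ratio of the ligands was -3.64 at E14.5 and -4.35 at E16.5, against 0.02 and 0.07 over all genes. At both stages this median is the value of *Fgf18*. The ligands lie on both sides of 0, so it does not describe them as a set. With each cell thinned to 2000 UMIs, which leaves fewer ligands past 20 counts, the count of ligands higher in the epithelium of E14.5 was 1. Ligands below that minimum were not called, so the lower count does not show that a ligand lost its difference. No ligand ratio that could be recomputed after thinning changed sign.

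**Figure D2:**
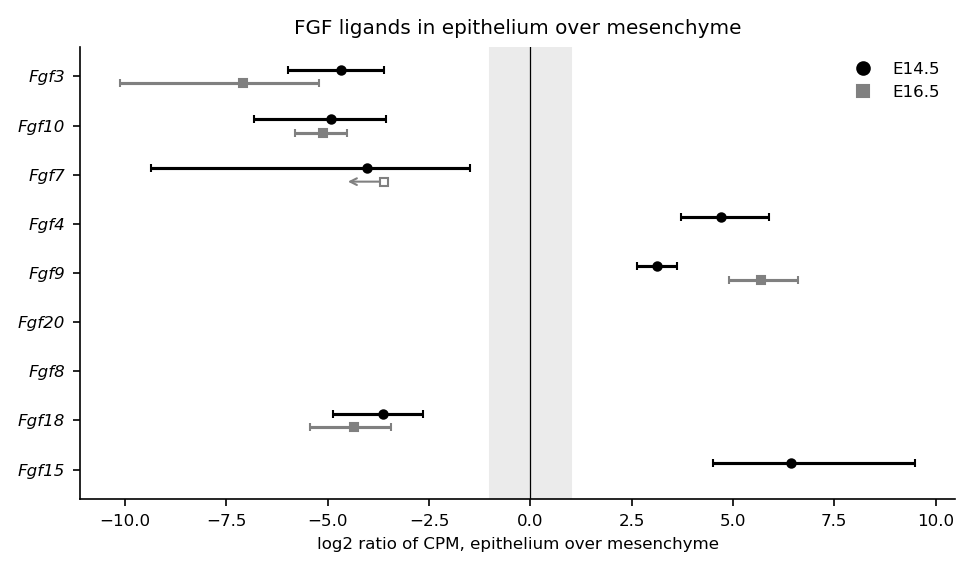
Log2 ratio of CPM in epithelium over mesenchyme (horizontal axis) for each ligand with at least 20 counts in both tissues together, at E14.5 (black circles) and E16.5 (grey squares). Bars are exact 95% intervals from counts, the open square with an arrow is a bound against the floor of 3 counts, and the grey band marks changes under 2-fold. *Fgf3*, *Fgf10*, *Fgf7* and *Fgf18* lie left of the band at both stages and *Fgf9* lies right of it at both, while *Fgf8* and *Fgf20* had too few counts to be drawn.

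At E11.5 *Fgf8*, an early epithelial signal of the mandibular arch, was found in few cells. Of its 63 UMIs, 40 lay in 6 cells with 16, 9, 6, 4, 3 and 2 UMIs, and 23 cells held a single UMI. The cells with 16, 6, 4 and 3 UMIs were called epithelial, that with 9 carried 21 UMIs of epithelial markers and was called mixed, and that with 2 had no call. The 13 epithelial cells of E11.5 held 30 *Fgf8* UMIs in 5 cells, at 186 CPM (125 to 265), and the 5827 mesenchymal cells held 21 in as many cells, at 0.484 CPM (0.300 to 0.740), a log2 ratio of 8.58 (7.73 to 9.46). *Fgf9* had 6 UMIs in 4 of the 13 cells and 34 in the mesenchyme, at 37.1 and 0.783 CPM (log2 ratio 5.57, 4.02 to 6.84). Thus 2 of the 5 ligands past the minimum were at least 2-fold higher in the epithelium of E11.5, where 12.9% of all genes were. *Fgf7* and *Fgf18* had 0 UMIs there, but the counts leave room for levels up to 21.9-fold and 24.7-fold above the mesenchyme, so a lower level was not detectable. These values rest on 13 cells. Under the stricter lineage call no *Fgf8* UMI remained in the E11.5 epithelium. That call leaves out cells with a UMI of another lineage's markers, a rule that deep cells are less likely to meet. The epithelial cells with 16, 6 and 4 *Fgf8* UMIs were deep, at 24669, 30100 and 40369 UMIs, beside a median of 5492. The loss is therefore not read as a lack of epithelial *Fgf8*. In the later matrices *Fgf8* had 2 and 5 UMIs over all kept cells.

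The muscle cells of the E11.5 mandible, compared with the mesenchyme after their values had been seen, were a further site of *Fgf9* and *Fgf10*. The 60 cells held 19 *Fgf9* UMIs in 13 cells, at 46.5 CPM (28.0 to 72.6), a log2 ratio of 5.89 over the mesenchyme (5.0 to 6.74). They held 22 *Fgf10* UMIs in 16 cells, at 53.8 CPM (33.7 to 81.5), a log2 ratio of 2.47 (1.78 to 3.08). These were 2 of 5 ligands past the minimum, beside 8.91% of all genes. *Fgf7*, *Fgf8* and *Fgf18* had 0 UMIs in the muscle cells, with upper bounds of 8.67-fold, 20.4-fold and 9.75-fold over the mesenchyme, so a lower level was not detectable at this depth. In both the epithelium and the muscle of E11.5 the level of *Fgf9* was above that of the mesenchyme, and the intervals of the 2 sites overlap.

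Between the mesenchyme of E11.5 and that of E14.5, *Fgf3* differed most among the ligands. A single *Fgf3* UMI was counted in the 5827 mesenchymal cells of E11.5, at 0.0230 CPM (0.000583 to 0.128), so that the log2 ratio of E14.5 over E11.5 was 10.22 (7.74 to 15.53). *Fgf18* went from 0.968 to 15.5 CPM, a log2 ratio of 4.0 (3.53 to 4.50), *Fgf9* from 0.783 to 2.65 CPM (1.76, 1.09 to 2.43) and *Fgf7* by 1.23 (0.61 to 1.85). These 4 of 6 ligands were at least 2-fold higher, where 12.5% of all genes were. *Fgf10* was 1.93-fold higher (1.67 to 2.24), short of that limit. *Fgf8* was the 1 ligand at least 2-fold lower (12.7% of all genes), with 21 UMIs at E11.5 and 0 at E14.5, at least 2.93-fold less. That call was lost under 5 of the alternatives tried, which the closing section names. The shares of E11.5 mesenchymal cells with *Fgf18* (0.669%) and *Fgf8* (0.360%) were below the 1.82% that 0 of 165 erythroid and immune cells allow. Those with *Fgf9* were 0.498% at E11.5, where 1 of 165 such cells held *Fgf9* (0.606%), and 0.978% at E14.5, where 0 of 137 did, which allows 2.19%. Neither share is told apart from background, and the ratio of *Fgf9* is not read as a change of expression. The shares with *Fgf7* (0.789% and 0.913%) were also below what 0 of 165 and 0 of 137 cells allow. The incisor bud of E14.5 was set against the whole mandible here, so a wider dissection and an earlier stage cannot be told apart.

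Between E14.5 and E16.5 the 2 leading mesenchymal ligands moved apart. *Fgf10* was 2.26-fold higher at E16.5 (1.99 to 2.57) and *Fgf3* was 1.83-fold lower (1.58 to 2.12), so the ratio of *Fgf10* to *Fgf3* in the mesenchyme turned, from 342 against 499 UMIs to 799 against 282. *Fgf10* was the 1 of 5 ligands at least 2-fold higher, where 9.53% of all genes were, and *Fgf9* the 1 at least 2-fold lower (log2 ratio -1.93, -2.94 to -1.02), where 3.01% were. The *Fgf9* call rests on shares of cells not told apart from background, 0.978% and 0.514%, the latter beside 1 of 29 erythroid and immune cells at E16.5 (3.45%). *Fgf18* (-0.45, -0.72 to -0.19) and *Fgf7* (-0.32, -0.98 to 0.33) were within 2-fold. With a stricter lineage call the log2 ratio of *Fgf3* was -0.26.

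In the epithelium the enamel knot ligands *Fgf4* and *Fgf20*, and *Fgf15*, were lower at the later stage. *Fgf4* went from 13.0 to 0.333 CPM, a log2 ratio of -5.29 (-6.78 to -4.11), with 6 UMIs left in 3 of the 1577 cells. *Fgf15* went from 9.46 CPM to a single UMI, a log2 ratio of -7.41 (-12.74 to -4.88). No *Fgf20* UMI was found in any kept cell of E16.5, and its epithelial level was at least 13.98-fold lower than at E14.5. *Fgf9* went the other way, 1.55-fold higher (1.29 to 1.86). Of 4 ligands past the minimum, 0 were at least 2-fold higher (10.1% of all genes) and 2 were at least 2-fold lower (*Fgf4* and *Fgf15*; 2.94%).

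*Fgf3*, *Fgf4* and *Fgf15*, which differed in place at E14.5, are neighbours in the genome. *Fgf3* (ENSMUSG00000031074, chr7:144838083-144844436), *Fgf4* (ENSMUSG00000050917, chr7:144847367-144865243) and *Fgf15* (ENSMUSG00000031073, chr7:144896531-144900953) follow each other on the plus strand of chromosome 7 (GRCm38, GENCODE vM21). Gaps of 2930 and 31287 bases separate them, with no other gene in between. At E14.5 *Fgf3* was mesenchymal (log2 ratio of epithelium over mesenchyme -4.66) while *Fgf4* (4.71) and *Fgf15* (6.42) were epithelial. The 100 bases from 120 to 21 before the RefSeq start sites of *Fgf3* and *Fgf4* (RefSeq, GRCm38.p6, plus strand, 22774 bases from start to start) are shown because these adjacent genes were detected in different tissues of the same bud. The RefSeq starts lie 529 and 14019 bases inside the GENCODE genes given above, so both windows fall within those gene spans, before the RefSeq start but not before the GENCODE one. They were searched on both strands for the TATA sequence TATANA, the GC box GGGCGG and the TCF/LEF core CTTTGA. Capitals mark the overlapping TATANA matches, 30 and 28 bases before the *Fgf4* start, and no annotated exon covers either window.
Fgf3 upstream (chr7:144838492-144838591): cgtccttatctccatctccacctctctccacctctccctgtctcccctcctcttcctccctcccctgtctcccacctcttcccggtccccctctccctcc
Fgf4 upstream (chr7:144861266-144861365): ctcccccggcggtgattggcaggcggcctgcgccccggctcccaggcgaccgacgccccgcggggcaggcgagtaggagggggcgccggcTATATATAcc

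The *Fgf3* window is made mostly of C and T and held none of the 3 motifs, and *Fgf4* was the 1 ligand of 6 with an entry in the promoter table (*Fgf3*, *Fgf4*, *Fgf7*, *Fgf9*, *Fgf10* and *Fgf18*) whose window held any of them. Over the 32851 promoters of the table, 9.80% held TATANA, 22.6% GGGCGG and 5.22% CTTTGA in the same window. A match describes these letters and no more. The other ligands lie on chromosomes 13 (*Fgf10*), 2 (*Fgf7*), 14 (*Fgf9*), 8 (*Fgf20*), 19 (*Fgf8*) and 11 (*Fgf18*). *Fgf7*, *Fgf9*, *Fgf10*, *Fgf15* and *Fgf20* overlap a gene on the opposite strand, and whether the counting used strand is not given in the sources used here.

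Within the E14.5 epithelium the ligands met in a small group of cells. Of the 27 cells with *Fgf4*, 15 also held *Fgf15*, which is 78.9% of the 19 *Fgf15* cells, although *Fgf15* was seen in only 2.28% of all epithelial cells. *Fgf9* was seen in 15 of the 27 *Fgf4* cells and in 10 of the 14 *Fgf20* cells, but in 10.6% of the epithelium as a whole. Of the 832 epithelial cells, 727 held none of *Fgf4*, *Fgf9*, *Fgf15* and *Fgf20*, 80 held 1 of them, 10 held 2, 12 held 3 and 3 held all 4. In the mesenchyme *Fgf3* and *Fgf10* shared 74 cells at E14.5 (19.3% of *Fgf3* cells and 25.3% of *Fgf10* cells) and 87 at E16.5 (40.8% and 16.9%). Of all mesenchymal cells, *Fgf10* was in 6.37% at E14.5 and 20.3% at E16.5, and *Fgf3* in 8.35% and 8.42%. *Fgf3* and *Fgf18* were seen together in 4 cells at each stage, 1.04% and 1.88% of the *Fgf3* cells, where *Fgf18* was in 4.91% and 6.84% of all mesenchymal cells. Cells with a ligand were mostly deeper than the rest, and these shares moved with the number of UMIs required. With at least 2 UMIs of each ligand, 11 of 12 *Fgf15* cells held *Fgf4* (91.7%), and 10 of 30 *Fgf9* cells did (33.3%, against 17.0% at 1 UMI). Counted over the 22 *Fgf4* cells, the share with *Fgf15* was 50% (55.6% at 1 UMI). In the E14.5 mesenchyme 5 of 91 *Fgf3* cells held *Fgf10* at 2 UMIs (5.49%), where 0.935% of all mesenchymal cells did. At 1 UMI these shares were 19.3% and 6.37%.

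The epithelial ligand cells were then described by genes that mark regions of the tooth germ. *Shh*, a ligand of the enamel knot and the later inner enamel epithelium, was in 114 of the 832 epithelial cells at E14.5. *Fgf4* was at 64.1 CPM in these cells and 0.769 CPM in the rest, a log2 ratio of 6.38 (4.97 to 8.29). *Fgf15* was at 44.1 and 1.15 CPM (5.26, 4.04 to 6.76), and *Fgf9* at 68.1 and 12.1 CPM (2.49, 2.0 to 2.99), so that all 3 ligands with enough counts were at least 2-fold higher with *Shh*, beside 5.22% of all genes. Counted by cells, 24 of 27 *Fgf4* cells, 16 of 19 *Fgf15* cells, 12 of 14 *Fgf20* cells and 42 of 88 *Fgf9* cells held *Shh*. *Lef1*, a Wnt effector, was in 22 of the *Fgf4* cells and 12 of the *Fgf20* cells, and *Cdkn1a*, a cell cycle inhibitor known from the enamel knot, in 21 and 12. In the whole epithelium *Lef1* was in 20.7% of cells and *Cdkn1a* in 27.5%. The *Fgf4* cells were deeper than the rest (median 7439 against 4761 UMIs), which raises the share with any gene. In the 179 cells with *Sox2*, a stem cell factor of the dental epithelium, the CPM of *Fgf4* and *Fgf15* was lower, by log2 ratios of -2.18 (-3.29 to -1.22) and -2.48 (-3.99 to -1.27). Counted by cells, 3 of 27 *Fgf4* cells (11.1%, 2.35 to 29.2) and 3 of 19 *Fgf15* cells (15.8%, 3.38 to 39.6) held *Sox2*. Both intervals include the 21.5% of the whole epithelium, so the cell counts do not show this difference. The log2 ratio of *Fgf9* was -0.48 with an interval that reaches 0, and 28 of its 88 cells held *Sox2* (31.8%, 22.3 to 42.6), against 21.5% of the epithelium. No *Fgf4* UMI fell in the 81 cells with *Krt15*, a keratin of oral and outer epithelium.

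At E16.5 *Fgf9* alone remained for this comparison. It was at 82.1 CPM in the 482 cells with *Shh* and 6.40 CPM in the others, a log2 ratio of 3.68 (3.32 to 4.06), beside 3.43% of all genes at least 2-fold higher. *Shh*+ cells made up 30.6% of the epithelium and held 88.9% of its *Fgf9* UMIs. *Fgf9* was also higher with *Cdkn1a* (2.04, 1.73 to 2.36), *Lef1* (1.81, 1.57 to 2.06) and *Wnt10b* (1.72, 1.45 to 1.97). It was lower with *Sox2* (-2.04, -2.71 to -1.44) and lowest with *Krt15* (-4.19, -6.07 to -2.83), where 4 UMIs were counted in 95 cells.

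**Figure D3:**
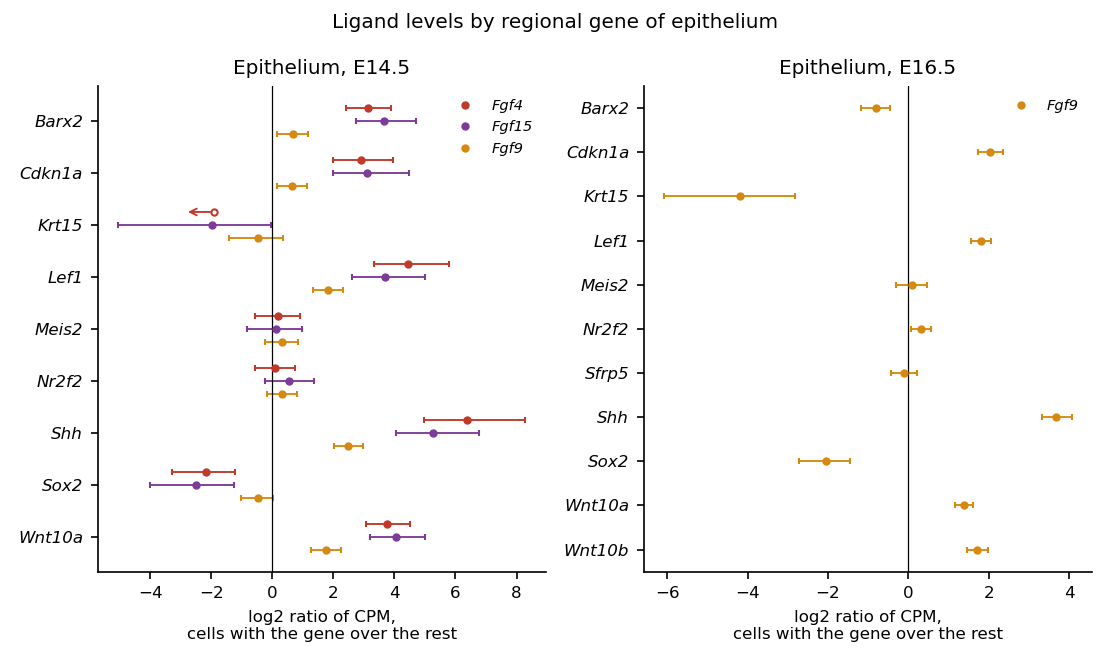
Log2 ratio of ligand CPM in epithelial cells with a UMI of each regional gene shown (vertical axis) over those without (horizontal axis), at E14.5 for *Fgf4* (red), *Fgf15* (purple) and *Fgf9* (orange) and at E16.5 for *Fgf9*. Bars are exact 95% intervals from counts, and the open circle with an arrow is a bound. The 3 ligands lie furthest to the right with *Shh* (6.38, 5.26 and 2.49 at E14.5), and *Fgf4* and *Fgf15* lie left of 0 with *Sox2*, while the bar of *Fgf9* there reaches 0 at E14.5.

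The mesenchymal ligands differed from each other in the same description. At E14.5 *Fgf3* followed *Crym*, a thyroid hormone binding protein: it was at 84.1 CPM in the 395 *Crym*+ cells and 17.3 CPM in the rest, a log2 ratio of 2.28 (2.02 to 2.54). It was the 1 ligand at least 2-fold higher with *Crym*, beside 2.42% of all genes. *Fgf18* showed the opposite, at 2.51 and 17.8 CPM (-2.83, -4.15 to -1.76). *Fgf3* was higher and *Fgf18* lower with *Msx1*, a transcription factor of odontogenic mesenchyme (1.11, 0.77 to 1.46, and -0.90, -1.25 to -0.55), while with *Runx2*, the regulator of bone formation, *Fgf10* was higher (0.85, 0.52 to 1.19) and *Fgf18* lower (-2.26, -2.71 to -1.83). The 55 cells with *Barx1*, a factor of the proximal jaw, had *Fgf18* at 99.3 CPM, a log2 ratio over the others of 2.78 (2.06 to 3.42). *Fgf3* and *Fgf10* were lower in the 391 cells with the chondrogenic factor *Sox9*, by log2 ratios of -2.02 (-3.04 to -1.17) and -1.46 (-2.48 to -0.61). *Fgf7* had 12 of its 46 UMIs there and was higher (1.94, 0.86 to 2.93).

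At E16.5 the relations of *Fgf3* with *Pax9* and *Sox9* stood the other way. With *Pax9*, a factor of odontogenic mesenchyme, *Fgf3* had a log2 ratio of 1.04 at E14.5 (0.78 to 1.30) and -1.30 at E16.5 (-1.68 to -0.92), and with *Sox9* the values were -2.02 and 0.79 (0.45 to 1.14). *Fgf10* kept its sign with *Pax9*, 1.04 (0.73 to 1.35) and then 1.18 (0.96 to 1.41), with 59.1 CPM in *Pax9*+ and 26.0 CPM in other cells at E16.5. *Fgf18* was 1.40 higher with *Pax9* at E16.5 (0.95 to 1.86) but -0.08 at E14.5. *Fgf10* and *Fgf18* were the 2 ligands at least 2-fold higher with *Pax9* at E16.5, beside 3.43% of all genes. At E16.5 *Fgf3* was lower with *Runx2* (-1.34, -1.69 to -0.995) and, as at E14.5, higher with *Msx1* (1.41, 0.72 to 2.19). These ratios were not compared by a test between stages.

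**Figure D4:**
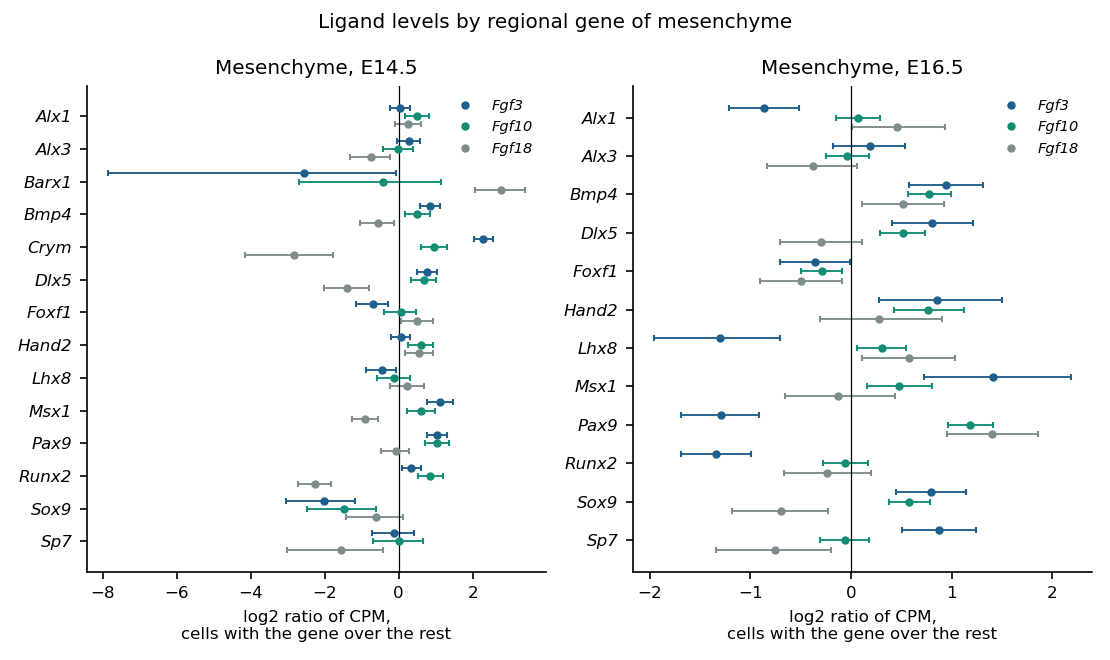
Log2 ratio of ligand CPM in mesenchymal cells with a UMI of each regional gene (vertical axis) over those without (horizontal axis), at E14.5 and E16.5, for *Fgf3* (blue), *Fgf10* (green) and *Fgf18* (grey). Bars are exact 95% intervals from counts, and the panels differ in horizontal scale. At E14.5 *Crym* separates *Fgf3* (2.28) from *Fgf18* (-2.83), and at E16.5 *Pax9* separates *Fgf3* (-1.30) from *Fgf10* (1.18) and *Fgf18* (1.40).

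The genes highest in ligand cells over the other cells of the same tissue were taken where each ligand was most often seen. Among these genes *Fgf15* and *Crym* restate overlaps given above, from the same cells. In the 27 *Fgf4* cells of E14.5 the highest genes were *Fgf15*, the Wnt inhibitor *Wif1* (511 against 16.9 CPM, in 26 of the 27 cells) and *Bmp2*, a BMP ligand (127 against 5.42 CPM). In the 384 *Fgf3* cells of E14.5 they were *Crym* (156 against 29.8 CPM), the antisense gene *Dlx1as* (43.2 against 8.42 CPM) and *Gldn* (35.5 against 7.01 CPM). The 226 *Fgf18* cells were led by *Fibin* (104 against 24.0 CPM), the cyclin gene *Ccnd1* (93.3 against 22.9 CPM) and *Rtl3*. At E16.5 the 515 *Fgf10* cells were led by *Ecel1* (16.3 against 3.79 CPM), the transcription factor gene *Myb* (34.8 against 12.1 CPM) and *Draxin*, and the 250 *Fgf9* cells by the cystine transporter gene *Slc7a11* (12.9 against 1.40 CPM), *Aox3* and *Tmem229a*. The 46 *Fgf7* cells of the E11.5 mesenchyme were led by *Slc7a14*, *Adamtsl1* and *D17H6S53E*, each in at most 7 cells. The 21 mesenchymal *Fgf8* cells of that stage, with 1 UMI each, were led by *1700108F19Rik*, *Apoa1* and *Gm3364*, each in at most 7 cells. The shares of E11.5 mesenchymal cells with *Fgf7* or *Fgf8* were not told apart from background, so these cells may hold free RNA alone. Their leading genes are the highest of 8148 and 7055 ranked, and *Gm3364* rests on 3 UMIs.

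Cell cycle genes set the *Fgf4* cells apart. The 10 genes listed (*Mki67*, *Top2a*, *Cdk1* and others of the dividing cell) summed to 1055 CPM in the *Fgf4* cells and 2605 CPM in the other epithelial cells of E14.5, 2.47-fold less (2.23 to 2.74). In *Fgf3* cells the sum was 3549 against 2561 CPM, 1.39-fold more (1.35 to 1.42), with median depths of 6295 and 3153 UMIs. In *Fgf10* cells of E16.5 it was 1.20-fold more (1.18 to 1.23) and in *Fgf18* cells of E14.5 it was 2702 against 2702 CPM.

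On the receiving side, *Fgfr1* had the highest level of the FGF receptors in both tissues at E14.5 and E16.5. Of 4 receptors past the minimum, *Fgfr2* was the 1 at least 2-fold higher in the epithelium, beside 11.4% and 12.0% of all genes. *Fgfr3* was the 1 at least 2-fold lower, beside 13.7% at each stage. *Fgfr2* had log2 ratios of epithelium over mesenchyme of 1.27 at E14.5 (1.05 to 1.48) and 1.53 at E16.5 (1.39 to 1.67), and *Fgfr3* of -1.94 (-2.98 to -1.05) and -1.17 (-1.53 to -0.81). *Fgfr1* (-0.63 and 0.39) and *Fgfrl1* (0.44 and -0.08) were within 2-fold, and *Fgfr4* had fewer than 20 counts. Counts of a gene do not tell its splice isoforms apart. Of 10 genes that respond to FGF signals, 5 were at least 2-fold higher in the epithelium of E14.5 (*Etv1*, *Etv4*, *Etv5*, *Dusp6* and *Spry2*), beside 11.4% of all genes, and 1 was lower (*Spry4*, -2.24, -3.02 to -1.55), beside 13.7%. The largest was *Spry2*, at 2.77 (2.48 to 3.06), and *Dusp6* was at 1.88 (1.71 to 2.04). At E16.5, 6 were higher, the same 5 and *Spry1* (1.55, 1.25 to 1.86), beside 12.0% of all genes, and 0 were lower (13.7%). The list's median log2 ratio was 0.90 at E14.5 and 1.58 at E16.5, against 0.02 and 0.07 over all genes.

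**Figure D5:**
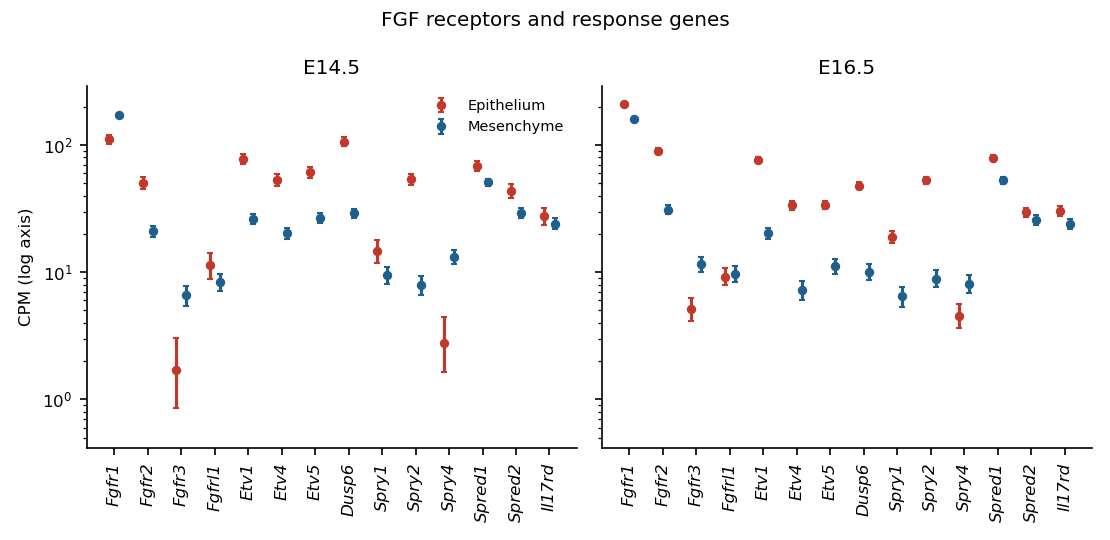
Level in CPM (vertical axis, log scale) of FGF receptors and FGF response genes in epithelium (red) and mesenchyme (blue) at E14.5 and E16.5. Bars are exact Poisson 95% intervals. *Fgfr2*, the Etv genes, *Dusp6* and *Spry2* stand higher in the epithelium at both stages, and *Fgfr3* and *Spry4* stand lower.

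Ligand cells were themselves unequal in receptors and response genes. *Fgfr2* was in 1 of the 27 *Fgf4* cells (3.70%, 0.0937 to 19.0) but in 26.0% of the E14.5 epithelium, at 2.76 against 53.2 CPM (log2 ratio -4.27, -9.58 to -1.78), although the *Fgf4* cells were the deeper (median 7439 against 4761 UMIs). In contrast *Fgfr1* was in 16 of them (59.3%, 38.8 to 77.6), beside 35.8% of the epithelium. Its log2 ratio of CPM was 0.40, with an interval that includes 0 (-0.03 to 0.81). In the *Fgf4* cells *Spry2* was at 188 against 45.7 CPM (2.04, 1.64 to 2.43). *Spred1*, another inhibitor of the cascade, was lower in the same cells, at 30.4 against 71.0 CPM (-1.22, -2.24 to -0.37). *Fgfr2* was in 1 of 14 *Fgf20* cells (7.14%, 0.181 to 33.9) and 2 of 19 *Fgf15* cells (10.5%, 1.30 to 33.1). Both intervals include the 26.0% of the whole epithelium, so these counts do not show a lower share. Of these cells, 8 with *Fgf20* and 15 with *Fgf15* were also *Fgf4* cells. Among the 88 *Fgf9* cells, 33 held *Fgfr2* (37.5%, 27.4 to 48.5). In the mesenchyme of E14.5, *Fgf3* cells had *Fgfr2* at 5.02 against 23.6 CPM (-2.23, -3.16 to -1.44), *Dusp6* at 70.3 against 22.1 CPM (1.67, 1.40 to 1.93), *Il17rd*, an inhibitor of FGF receptors, at 57.1 against 18.6 CPM (1.62, 1.32 to 1.91) and *Etv4* at 42.5 CPM (1.36, 1.03 to 1.69). *Fgf10* cells of E16.5 had *Fgfr2* at 17.3 against 35.9 CPM (-1.05, -1.40 to -0.72) and *Dusp6* at 10.2 against 10.1 CPM. Other response genes were higher in them within 2-fold, among them *Il17rd* (0.86, 0.58 to 1.14), *Spry1* (0.74, 0.18 to 1.29) and *Etv4* (0.68, 0.15 to 1.21). *Etv5* (0.64, 0.22 to 1.06) and *Etv1* (0.44, 0.12 to 0.76) were higher too, and no gene of the list was lower. *Fgf9* cells of E16.5 had *Spry2* at 97.0 against 38.3 CPM (1.34, 1.15 to 1.53), *Il17rd* at 49.1 against 24.1 CPM (1.03, 0.77 to 1.28) and *Spred1* at 46.8 against 89.8 CPM (-0.94, -1.16 to -0.73), and *Fgfr2* there was within 2-fold (0.12, -0.04 to 0.28). Within 2-fold, *Etv4* was higher in these cells (0.48, 0.23 to 0.73). *Etv5* (-0.43, -0.73 to -0.14), *Dusp6* (-0.36, -0.60 to -0.12) and *Etv1* (-0.20, -0.39 to -0.02) were lower.

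Over the 12 groups of at least 50 cells that a stage and lineage define, the genes most like each ligand by Pearson's r of log2(CPM + 1) were *Podnl1*, *Sfrp4* and *5430421F17Rik* for *Fgf3* (r of 0.977, 0.972 and 0.971), *Ece2*, *Cend1* and *Best1* for *Fgf10* (0.974, 0.969 and 0.966), *Adcy5*, *C1qtnf7* and *Grem1* for *Fgf7* (0.996, 0.994 and 0.990), and *P4ha3*, *Ndp* and *Fbln7* for *Fgf18* (0.969, 0.962 and 0.95). For the epithelial ligands they included *BC037156* and *Them5* for *Fgf4* (0.951 and 0.892) and *Tcerg1l*, *Lhfpl1* and *Gm31816* for *Fgf9* (0.977, 0.965 and 0.95). These are the highest of 13457 genes ranked, over groups that share 3 matrices and differ in depth and cell number, and *Fgf8*, *Fgf15* and *Fgf20* had under 100 UMIs and were not ranked. *Fgf4* was at 13.0 CPM in the epithelium of E14.5, 0.496 in its mesenchyme and 0.333 in the epithelium of E16.5, so a single group mostly sets its r. That of *Fgf7* mostly sets mesenchyme, at 1.08 to 2.54 CPM, against groups near 0.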

How the data were processed

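The deposited files hold UMI counts per gene and barcode, 1 matrix per stage, made by the authors from 10x Genomics 3' libraries with Cell Ranger 4.0.0 on mm10 (submitters' processing notes) and not normalized. No column of samples was left unused (0). The study's limits on cells were used (700 genes or more, mt- UMIs of 20% or less). A cell took a lineage if at least 2 of that lineage's markers had a UMI and their UMIs were at least 2 times those of the next of 9 marker lists. Markers held by over 20% of another class's first-pass cells were not counted. The ligands, gene lists and this rule were chosen with earlier results of these data known, the rule among several versions.

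Counts were pooled within a group of cells and given as CPM, with nothing added. Levels carry exact Poisson intervals, shares Clopper-Pearson intervals and ratios conditional binomial intervals, at 95%. The share that 0 cells allow is instead the floor of 3 counts over the number of cells, which is not a Clopper-Pearson limit. Called means at least 2-fold, among genes with at least 20 counts in both groups together. Intervals were tried on pooled counts simulated from the Poisson model they assume (13080 genes, epithelium over mesenchyme at E14.5): 95.6% held the true ratio. The simulation had no spread between cells or samples, so it checks the calculation alone. Named genes are the listed ligands, receptors, response, regional and cell cycle genes, the 3 genes most like each ligand with at least 100 UMIs, and the 3 genes with the largest ratio in ligand cells (at least 20 cells, a UMI in at least 10% of them and 50 counts). Regional ratios needed 30 ligand UMIs and 50 cells. Alternatives changed the filter, the lineage call, the depth, the CPM added and the count minimum. The stricter lineage call needed a further marker with a UMI, and no UMI of another list's counted markers, collagen and globin genes aside. A deeper cell is less likely to meet that rule, so its values rest on fewer and probably shallower cells. Scrublet's own threshold called 0, 0 and 2 doublets, so doublets were not removed, and dropping the top 5% of scores was an alternative. Python 3.11.15, numpy 2.4.6, scipy 1.17.1, scanpy 1.11.5 and leidenalg 0.10.2 were used. Gene positions are from GENCODE vM21, another release than the one counted on. Values of 2 named genes are not reported here.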

Additional observations from a re-analysis of the deposited data

Results flagged for a closer look

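The counts of *Fgf9* went in opposite directions in the 2 tissues between E14.5 and E16.5. Its log2 ratio of E16.5 over E14.5 was 0.63 in the epithelium (0.37 to 0.90) and -1.93 in the mesenchyme (-2.94 to -1.02), and with 1 sample per stage the difference was not tested. The mesenchymal counts were 48 and 13 UMIs, in 0.978% and 0.514% of cells. Neither share is told apart from background (0 of 137 erythroid and immune cells, which allows 2.19%, and 1 of 29, 3.45%), so no movement of *Fgf9* expression in the mesenchyme is read from them.

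Barcodes that the filter on cells left out still held ligand RNA. The 9 ligands summed to 10.3 CPM in the removed barcodes of E11.5, 8.20 CPM in those of E14.5 and 5.57 CPM in those of E16.5, against 14.6, 58.6 and 53.0 CPM in the kept cells. Whether the removed barcodes were cells was not tested.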

How the results depend on the processing

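No paired analysis was possible because each stage is 1 matrix whose samples cannot be told apart, and for the same reason no replicate could be left out. All 181 values of the 25 log2 ratios of ligands that could be recomputed kept their sign under the alternatives tried. Their sizes were less stable. Under the stricter lineage call 7 of 16 ratios, 12 of 20 CPM values and 2 of 10 counts of called ligands moved. Under thinning 5 of 17, 11 of 20 and 3 of 10 did, and with 10 CPM added 21 of 25 ratios and 5 of 10 counts. Each other alternative moved at most 1 of each kind. Thinning cells to 2000 UMIs, which leaves fewer ligands past 20 counts, left 1 of 3 ligands higher in the epithelium of E14.5 and 0 of 2 lower in the epithelium of E16.5 against E14.5. Adding 10 CPM to both sides shrinks ratios of low genes by construction. It left 2 of 4 ligands higher in the mesenchyme of E14.5 against E11.5, 0 of 1 higher and 0 of 1 lower in that of E16.5 against E14.5, and 1 of 2 lower in the epithelium. The stricter lineage call left 1 of 2 lower in the epithelium, and lineages from Leiden clusters gave 1 higher in place of 0. The 1 lower ligand of the mesenchyme at E14.5 against E11.5 (*Fgf8*) was lost (0) under the stricter call, thinning, 10 CPM, the removal of high doublet scores, and markers counted up to 10% with calls at 3 times the next class (added after the data were seen). Except where the construction shows it, the cause was not tested. With a minimum of 1 count, the percentages of all genes at least 2-fold higher and lower were 18.7 and 24.1 for epithelium over mesenchyme at E14.5, 19.8 and 21.0 at E16.5, 20.3 and 21.7 for mesenchyme E14.5 over E11.5, 17.6 and 12.0 for E16.5 over E14.5, and 21.6 and 10.8 for epithelium. With a minimum of 100 counts the last 2 comparisons gave 6.01 and 1.58, and 6.14 and 1.22. With at least 2 UMIs of each ligand, the percentage of *Fgf3* cells with *Fgf10* was 5.49 at E14.5 and 16 at E16.5. Beside these stand 0.935 and 6.64 percent of all mesenchymal cells. Values from fewer than 20 UMIs (*Fgf20*, *Fgf7* in epithelium) are limited by depth.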

Other observations

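Of 13 further FGF ligand genes, 4 passed the minimum of 20 counts at E14.5 and 6 at E16.5. *Fgf13*, an intracellular member of the family that is not secreted, and *Fgf2*, a ligand without a signal peptide, were lower in the epithelium than in the mesenchyme at both stages, by log2 ratios of -5.89 (-8.18 to -4.34) and -5.38 (-10.69 to -2.87) at E14.5 and of -2.73 (-3.25 to -2.25) and -5.90 (-7.79 to -4.53) at E16.5. *Fgf1* was higher in the epithelium, by 1.84 (1.10 to 2.60) and 2.80 (2.09 to 3.58). *Fgf17*, of the same subfamily as *Fgf8* and *Fgf18*, had 29 UMIs in the epithelium and 5 in the mesenchyme of E16.5, a log2 ratio of 2.59 (1.21 to 4.32). *Fgf5* had 35 UMIs in the mesenchyme of the E11.5 whole mandible, at 0.806 CPM, and 0 in that of the E14.5 bud. The muscle cells of E11.5 held 12 *Fgf5* UMIs, at 29.4 CPM (15.2 to 51.3). Each of these genes was given without a test, as 1 sample per stage allows none.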
